A study of Mus musculus with 10 samples.

Results

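Paneth cells make more than defensins, and 10 such genes were followed here in crypts of the mouse jejunum: Lyz1, Mmp7, Ang4, Itln1, Mptx1, Mptx2, Clps, Habp2, Nupr1 and Fgfrl1. They were taken by name from 54838 genes listed in each library. All 10 passed the filter on low counts, which left 14719 genes to test. Lyz1 and Mptx2 had been shown by the study on these same libraries, so their direction is not independent evidence.

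Paneth cells sit at the base of small intestinal crypts between the stem cells. They store antimicrobial proteins in granules, release them into the crypt lumen when bacteria are sensed, and supply WNT, NOTCH and EGF ligands to the neighbouring stem cells. The α-defensins, encoded by the Defa genes, are the best known of their products, and lysozyme is the protein most often stained to find the cells.

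The libraries were polyA RNA-seq of crypts from 5 WT and 5 Arid3a conditional knockout (cKO) mice, and the comparison asks how Paneth cell genes stand once the transcription factor ARID3A is deleted from the epithelium. The cKO mice carried VillinCre-ERT2 and 2 floxed Arid3a alleles, so that tamoxifen deletes the gene in Villin-positive epithelial cells and not in the cells beneath them. Both genotypes received tamoxifen on 3 days and were culled 1 month after the first dose, at ages not given in the sources used here. Whether the WT mice carried the Cre transgene or the floxed alleles was also not given. Library totals ran from 27050455 to 28152743 counts in WT and from 28314069 to 31053622 in cKO mice. Arid3a itself had 55, 60, 81, 80 and 74 counts in the 5 WT libraries and 9, 14, 14, 26 and 31 in the 5 cKO libraries, and fell by 1.84 on the log2 scale (adjusted p = 0.00204, edgeR's quasi-likelihood test), although reads outside the deleted part can still be counted. Levels are given in CPM, the counts scaled to a common library total corrected by the trimmed mean of M-values (TMM), and differences as log2 fold changes of cKO against WT with Benjamini-Hochberg adjustment over all genes tested at a threshold of 0.05. The labels name separate animals, and n = 5 per genotype throughout.

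Of the 10 genes, 8 were lower in cKO crypts and none was higher by edgeR, nor was any higher at an unadjusted p below 0.05, by DESeq2 or by limma. Across all genes tested 28.3% passed the threshold and 12.7% did so in the lower direction. In the same 8 genes every cKO animal lay below every WT animal, a pattern met by 7.62% of all genes tested. The median log2 fold change of the 10 genes was −0.62, against −0.031 for all genes. The genes that fell were Lyz1, Mmp7, Itln1, Mptx2, Clps, Habp2, Nupr1 and Fgfrl1, and Ang4 and Mptx1 did not pass the test. In RNA of whole crypts a smaller number of Paneth cells and less of each RNA per Paneth cell cannot be told apart. By lysozyme staining the study reported fewer Paneth cells in the cKO intestine, and the part of that in these falls was not tested. CPM are also shares of a library, and the part of other cell types in these falls was not tested.

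**Figure D1:**
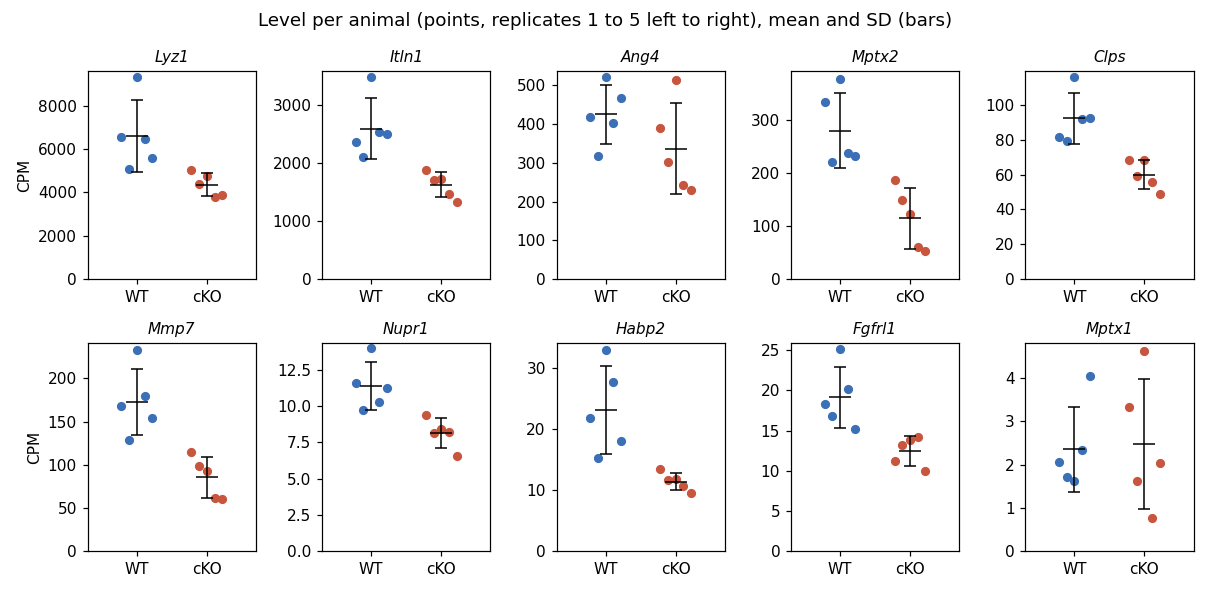
Level of each of the 10 genes in CPM (vertical axes from 0, a scale of its own in each panel) in WT and cKO crypts. Each point is 1 animal and the bars give the mean and SD of 5 animals; in every panel but those of Ang4 and Mptx1 all cKO points lie below all WT points.

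Mptx1 and Mptx2 encode mucosal pentraxins and are close relatives on chromosome 1. Their upstream sequences are shown because the genes differed widely in level, as given further down, while the bases before their starts are much alike. Both runs are the stretches that align with each other within the 250 bases before the RefSeq start (GRCm38.p6), 5′ to 3′ in the direction of transcription, with capitals for bases that differ or have no counterpart. For Mptx2 the run is chr1:173277778-173278006 on the minus strand, and for Mptx1 it is chr1:174330283-174330517 on the plus strand.

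Mptx2: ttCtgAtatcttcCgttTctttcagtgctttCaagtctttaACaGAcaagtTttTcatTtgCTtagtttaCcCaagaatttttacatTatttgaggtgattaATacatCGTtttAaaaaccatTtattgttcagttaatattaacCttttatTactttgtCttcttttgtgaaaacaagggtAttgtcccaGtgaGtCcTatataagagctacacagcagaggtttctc

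Mptx1: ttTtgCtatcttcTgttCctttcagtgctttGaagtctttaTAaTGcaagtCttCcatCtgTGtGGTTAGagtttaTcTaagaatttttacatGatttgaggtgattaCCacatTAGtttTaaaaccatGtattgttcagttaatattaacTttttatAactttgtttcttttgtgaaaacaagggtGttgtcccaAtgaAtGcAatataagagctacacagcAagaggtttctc

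Of 228 aligned bases 197 were identical (86.4%). Both hold the letters GTTAAT recognised by the epithelial factor HNF1 on the plus strand, followed without overlap by the same letters on the minus strand (ATTAAC), beginning 96 and 90 bases before the start of Mptx1 and 117 and 111 bases before that of Mptx2. Either strand of GTTAAT occurred in 6.5% of 27025 promoters of equal length, and among the 9 genes with a promoter entry also in Habp2. The letters TATAA, the core of the TATA box, lay 29, 80 and 196 bases before the start of Mptx1 and 49 bases before that of Mptx2 on the plus strand. Those at 29 bases in Mptx1 and 49 bases in Mptx2 are the same site in the aligned runs, as are the HNF1 letters. The distances differ with the start used. The gene annotation starts Mptx2 at base 173277777, inside the window of 173277757 to 173278006 taken before its RefSeq start. On either strand they were in 5 of the 9 genes (Mmp7, Mptx1, Mptx2, Itln1 and Nupr1) against 23.5% of all promoters. A core of the ARID3A motif, ATTAAA, was found only in Habp2 among these 9 and in 13.0% of all promoters, the TCF/LEF core CTTTGA only in Mptx1 and in 14.0%, and the HNF4 letters CAAAGTCCA in none of the 9 and in 0.4%. These matches describe letters, not bound sites.

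Lyz1 (ENSMUSG00000069515, chr10:117287797-117292868, minus strand) encodes the lysozyme of Paneth cell granules, which cuts bacterial peptidoglycan. Its levels were 6568, 5058, 9334, 6479.6 and 5566 CPM in the 5 WT animals and 5046, 4375, 4749, 3776 and 3870.2 CPM in the 5 cKO animals. The gap between the groups was narrow, since the highest cKO animal lay just under the lowest WT animal, and WT replicate 3 stood well above the other WT animals. The mean fell from 6601 ± 1653 to 4363 ± 548 CPM (SD), a log2 fold change of −0.60 (95% interval −0.93 to −0.27, adjusted p = 0.0134, edgeR).

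Matrix metalloproteinase 7, encoded by Mmp7 (ENSMUSG00000018623, chr9:7692090-7699585, plus strand), cleaves the α-defensin precursors of the mouse into their active forms. Its levels were 168, 129, 232, 179.9 and 154 CPM in WT and 115, 98.5, 93.4, 61.7 and 60.9 CPM in cKO animals. All cKO animals were lower than all WT animals, and cKO replicates 4 and 5 were the lowest. The mean fell from 173 ± 38.5 to 85.9 ± 23.8 CPM (log2 fold change −1.01, 95% interval −1.47 to −0.55, adjusted p = 0.00679, edgeR), to 49.8% of the WT level.

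Angiogenin 4, the product of Ang4 (ENSMUSG00000060615, chr14:51763878-51773590, minus strand), is a microbicidal ribonuclease of the granules. WT animals had 417, 319, 522, 404 and 466 CPM, and cKO animals had 391, 301, 514, 243 and 231 CPM. The groups overlapped, because cKO replicates 1 and 3 were within the WT range. The log2 fold change was −0.34 with a 95% interval from −0.83 to 0.15 (adjusted p = 0.276, edgeR), an interval that holds both no change and the fall seen for Lyz1. Without cKO replicate 3 the log2 fold change of Ang4 was −0.54 and passed the threshold (adjusted p = 0.0461; 0.0461 to 0.574 over its alternatives).

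Of Itln1, Mptx1 and Mptx2, which encode secreted sugar- or ligand-binding proteins, Itln1 had the most RNA. Itln1 (ENSMUSG00000038209, chr1:171518122-171535294, minus strand) encodes intelectin 1, a lectin that binds sugars of microbial surfaces. WT animals had 2357, 2096, 3479, 2532 and 2500.4 CPM and cKO animals 1875, 1714, 1720.2, 1473 and 1332 CPM, with no overlap. The mean fell from 2593 ± 525 to 1623 ± 217 CPM (log2 fold change −0.68, 95% interval −0.97 to −0.38, adjusted p = 0.00444, edgeR).

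Mptx2 (ENSMUSG00000079180) had 332, 219.7, 376, 238 and 231 CPM in WT and 187, 148, 122, 59.7 and 53.6 CPM in cKO animals. It showed the largest fall of the 10 genes by log2 fold change, and cKO replicates 4 and 5 were far below replicates 1 and 2. The log2 fold change was −1.29 (95% interval −2.11 to −0.48, adjusted p = 0.0268, edgeR), or 40.8% of the WT mean. The call was lost without WT replicate 1 (log2 fold change −1.22, adjusted p = 0.0514), WT replicate 3 (−1.16, 0.0613) or cKO replicate 3 (−1.32, 0.0516) by edgeR (0.00229 to 0.114 over its alternatives, DESeq2 and limma included).

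Mptx1 (ENSMUSG00000026531) was near the lower end of what was measured, at 23 to 132 counts per library. Its levels were 2.05, 1.72, 1.63, 2.34 and 4.03 CPM in WT and 3.33, 1.62, 4.61, 0.781 and 2.04 CPM in cKO animals, with full overlap. The log2 fold change was 0.076 with a 95% interval from −0.84 to 0.99 (adjusted p = 0.911, edgeR), and its sign turned under 11 of 24 alternatives, so no direction is given for it. This interval also holds the fall of Lyz1.

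Within a library, Mptx2 had 162, 128, 231, 102 and 57.3 times the counts of Mptx1 in WT animals and 56.0, 91.5, 26.5, 76.3 and 26.3 times in cKO animals. The ratio was lower in cKO animals on average, by −1.34 on the log2 scale, but the groups overlapped (two-sided exact permutation test over 252 assignments, p = 0.0317, a test chosen after the values were seen).

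Clps (ENSMUSG00000024225, chr17:28558149-28560766, minus strand) encodes colipase, the cofactor of pancreatic lipase, and was at 81.5, 79.4, 116, 91.8 and 92.4 CPM in WT and 68.3, 59.3, 68.2, 55.6 and 48.6 CPM in cKO animals. No cKO animal reached the lowest WT animal, and the log2 fold change was −0.62 (95% interval −0.88 to −0.36, adjusted p = 0.00354, edgeR). A list of 9 pancreatic acinar genes, which would mark pancreas in the dissection, summed to between 0.436 and 20.9 CPM in WT and between 0.168 and 4.92 CPM in cKO animals. The highest sum was in WT replicate 2, where Clps was lowest among the WT animals. Only 1 of the 9 acinar genes passed the filter on low counts, and a part of pancreas in the Clps values was not tested. Habp2 (ENSMUSG00000025075, chr19:56287137-56320822, plus strand), a serine protease that binds hyaluronan, was at 21.8, 15.3, 32.9, 27.7 and 18.1 CPM in WT and 13.4, 11.6, 11.8, 10.7 and 9.53 CPM in cKO animals. The cKO values were close together and all below the scattered WT values, with a log2 fold change of −1.02 (95% interval −1.44 to −0.60, adjusted p = 0.00360, edgeR).

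Nupr1 and Fgfrl1 encode proteins that are not secreted granule products. Nupr1 (ENSMUSG00000030717, chr7:126623249-126630861, minus strand) encodes a small nuclear protein induced by cell stress, and had 11.6, 9.70, 14.0, 10.3 and 11.3 CPM in WT and 9.39, 8.14, 8.46, 8.19 and 6.58 CPM in cKO animals. Its change was the smallest among the 8 genes that fell, at −0.48 (95% interval −0.74 to −0.22, adjusted p = 0.0124, edgeR). Of 8 genes of the integrated stress response, Asns, which makes asparagine, fell (log2 fold change −0.48) and Trib3, a pseudokinase, rose (1.60), and the other 6 did not pass the test. That share is near the 28.3% of all genes tested that passed in either direction. Fgfrl1 (ENSMUSG00000008090, chr5:108692382-108706924, plus strand) encodes an FGF receptor that lacks the kinase domain, and had 18.3, 16.8, 25.1, 20.2 and 15.2 CPM in WT and 11.2, 13.3, 13.9, 14.2 and 9.95 CPM in cKO animals. It fell without overlap by 0.61 on the log2 scale (95% interval −0.92 to −0.30, adjusted p = 0.00849, edgeR). Among the 4 kinase-bearing FGF receptors, Fgfr3 (−0.42) and Fgfr4 (−0.58) fell and Fgfr1 and Fgfr2 did not pass the test. Of all genes tested 12.7% fell.

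WT replicate 3 was the highest WT animal for 9 of the 10 genes, and WT replicates 3 and 4 had the lowest enterocyte marker sums, so the comparison was repeated without both. Then 4 of the 10 genes were lower, Mmp7, Itln1, Habp2 and Clps, against 4.45% of all genes tested. Lyz1 (log2 fold change −0.39, adjusted p = 0.0618), Mptx2 (−1.19, 0.114), Nupr1 (−0.41, 0.0549) and Fgfrl1 (−0.42, 0.0550) kept their sign and no longer passed edgeR's test with 3 against 5 animals. Levels of these same genes had a part in choosing WT replicate 3. Smaller falls were thus partly built into the choice, and fewer animals also make a call harder. Scaling by the library total in place of TMM moved the median of all genes to −0.16 and the share of lower genes among those called from 44.9% to 72.3%. On that scale 8 of the 10 genes were lower too, but so were 4030 of all 14719 genes tested, against 1869 with TMM.

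Per unit of length the genes spanned a wide range of levels. In TPM, which divides out gene length, the order in WT crypts was Lyz1 (7367 ± 2054), Itln1 (3222 ± 719), Ang4 (901 ± 168), Mptx2 (522 ± 145), Clps (233 ± 41.5), Mmp7 (231 ± 58.9), Nupr1 (23.7 ± 3.86), Habp2 (15.1 ± 5.83), Fgfrl1 (12.2 ± 3.35) and Mptx1 (4.29 ± 1.55). Neighbours whose WT animals overlapped were Ang4 and Mptx2, Clps and Mmp7, Nupr1 and Habp2, and Habp2 and Fgfrl1. In cKO crypts the order was the same except that Fgfrl1 (7.10 ± 1.17 TPM) stood above Habp2 (6.42 ± 0.936 TPM), which overlapped. Mptx2 fell to 197 ± 98.2 TPM in cKO crypts and then overlapped Clps at 142 ± 20.3 TPM.

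To see whether the genes moved with the α-defensins of the same library or apart from them, each was also measured against the summed counts of the 39 Defa genes. That sum was 16679 to 21707 CPM in WT and 9599 to 13146 CPM in cKO animals. On this scale most of the transcriptome lies above 0, with 72% of all genes tested called in either direction, 0.428% called lower and a median of 0.63, because the reference itself was lower in cKO crypts.

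Lyz1 amounted to 39.0%, 29.8%, 43.0%, 38.8% and 30.1% of the defensin counts in WT and 39.2%, 36.2%, 36.1%, 37.4% and 40.3% in cKO animals. Itln1 amounted to 14.0%, 12.4%, 16.0%, 15.2% and 13.5% in WT and 14.6%, 14.2%, 13.1%, 14.6% and 13.9% in cKO animals. Clps amounted to 0.484%, 0.468%, 0.536%, 0.550% and 0.499% in WT and 0.530%, 0.491%, 0.519%, 0.551% and 0.507% in cKO animals. For these 3 genes the cKO animals fell inside or beside the WT range. The log2 fold changes relative to the defensins were 0.066 for Lyz1 (95% interval −0.23 to 0.37), −0.016 for Itln1 (−0.30 to 0.27) and 0.034 for Clps (−0.23 to 0.29), and those of Fgfrl1 (0.053, −0.27 to 0.38) and Nupr1 (0.18, −0.14 to 0.50) did not pass the test either.

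Mmp7 and Mptx2 were the 2 of 10 genes called lower relative to the defensins. Mmp7 was at 0.999%, 0.759%, 1.07%, 1.08% and 0.831% of the defensin counts in WT and 0.892%, 0.815%, 0.71%, 0.612% and 0.634% in cKO animals (log2 fold change −0.37, 95% interval −0.67 to −0.074, adjusted p = 0.0245, edgeR; 0.0111 to 0.179 over its alternatives). Mptx2 was at 1.97%, 1.30%, 1.73%, 1.43% and 1.25% in WT and 1.45%, 1.23%, 0.930%, 0.592% and 0.559% in cKO animals (−0.69, −1.31 to −0.073, adjusted p = 0.0450, edgeR; 0.00181 to 0.143). In both genes the groups overlapped on this scale and cKO replicates 4 and 5 were the lowest animals. The calls were lost in 7 of 14 alternatives for Mmp7 and 9 of 14 for Mptx2, among them the sum without its most abundant Defa gene. The adjusted p of Mmp7 rose above 0.05 when any of WT replicates 1, 3 and 4 and cKO replicates 4 and 5 was left out. Its log2 fold changes were then −0.35, −0.32, −0.32, −0.31 and −0.32. That of Mptx2 rose above 0.05 when any of WT replicates 1 to 4 and cKO replicates 3 to 5 was left out, at −0.75 to −0.55.

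Habp2 was at 0.127 ± 0.0329% of the defensin counts in WT and 0.0992 ± 0.00650% in cKO animals (SD), with a log2 fold change of −0.36 that did not pass the threshold with all animals (adjusted p = 0.0545, edgeR; 0.0166 to 0.626 over its alternatives) and passed it without WT replicate 2 or 5 (−0.46 and −0.44). Ang4 and Mptx1 had positive values, of 0.29 (95% interval −0.028 to 0.60) and 0.66 (−0.097 to 1.42), with adjusted p of 0.0945 and 0.107. Mptx1 passed without WT replicate 5 (0.92) or cKO replicate 4 (0.87).

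**Figure D2:**
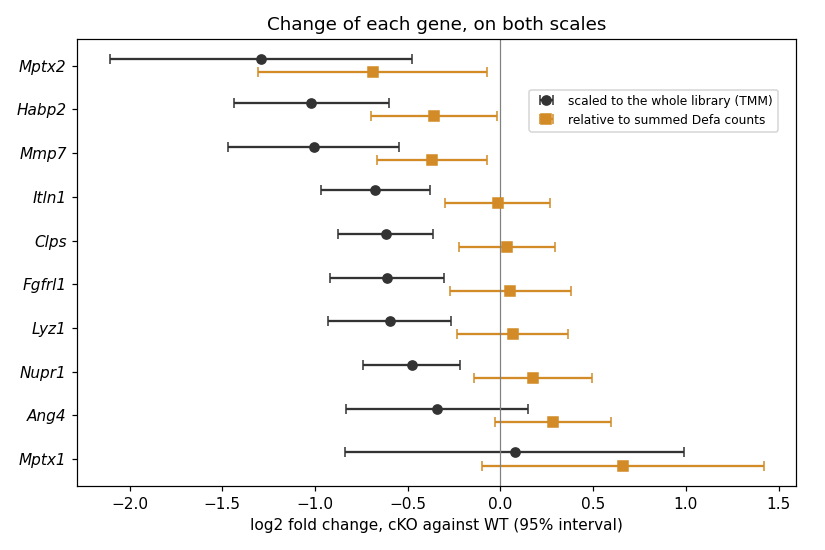
Log2 fold change of cKO against WT crypts for each gene (horizontal axis, points with 95% intervals, 5 animals per genotype), scaled to the whole library (circles) and relative to the summed Defa counts (squares). On the first scale 8 intervals lie below 0, and on the second the intervals of Mmp7, Mptx2 and Habp2 do, though Habp2 did not pass after adjustment.

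The spread between animals differed from gene to gene. The SD of log2 CPM within a genotype was 0.80 for Mptx2 in cKO animals against 0.35 in WT, and 0.77 against 0.44 for Mptx1. Mptx1 is also the gene with the most counting error, 20.9% of its level in its lowest library, whereas that of Mptx2 was at most 2.66%. Ang4 also had a wider spread in cKO (0.48) than in WT animals (0.27), and Lyz1 (0.18 against 0.34) and Habp2 (0.18 against 0.44) a narrower one. These spreads are descriptions of 5 animals each.

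**Figure D3:**
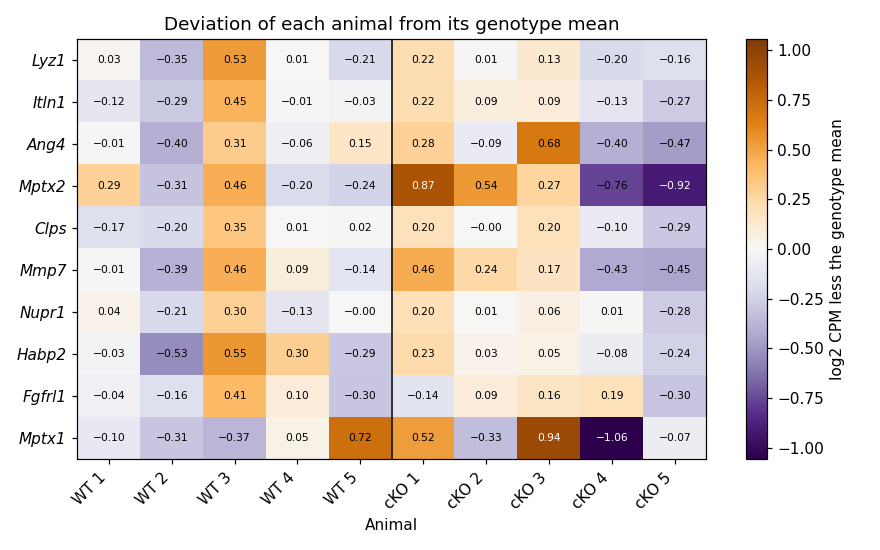
Deviation of log2 CPM from the genotype mean for each gene (rows, ordered by WT TPM) in each animal (columns). WT replicate 3 is above its mean in 9 genes and below it in Mptx1, and cKO replicates 4 and 5 are lowest for Mmp7 (−0.43 and −0.45) and Mptx2 (−0.76 and −0.92). Among the cKO animals they are also the lowest for Lyz1, Ang4, Itln1, Habp2 and Clps.

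Animals that were high for one of these genes were mostly high for the others. With the genotype means removed, Pearson's r over the 10 libraries was 0.95 for Itln1 and Clps, 0.92 for Lyz1 and Itln1, 0.92 for Mmp7 and Mptx2, and 0.91 for Lyz1 and Habp2. The points share library depth and crypt composition, so these values are descriptions. The lowest value was −0.37, for Mptx1 and Fgfrl1, and the 2 pentraxins reached 0.36. Among all genes tested, the one most like Lyz1 by this measure was Atp7b (0.96), that most like Mmp7 was Mfsd4a (0.97), that most like Ang4 was Defa26 (0.93) and that most like Mptx2 was Olfr418 (0.96). Itln1 and Clps were each other's nearest gene. For Habp2 it was Cdcp1 (0.97), for Nupr1 Mid2 (0.96), for Fgfrl1 Sox4 (0.98) and for Mptx1 Rdh13 (0.97). Each was picked as the highest of all tested genes with a symbol over 10 libraries, and so wide a search yields high values by chance. Between genotypes Atp7b rose (0.40), and Defa26 (−0.62), Itln1, Clps and Sox4 (−0.42) fell. Mfsd4a, Olfr418, Cdcp1, Mid2 and Rdh13 did not pass edgeR's test.

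Close relatives share sequence with some of these genes, and the reads had been divided between them by estimation. Lyz1 shared 16.1% of its windows of 50 bases with Lyz2, the lysozyme of macrophages, Mptx1 and Mptx2 shared 17.9% and 18.0% with each other, and Ang4 shared 4.70% with Ang2 and Ang5, which had 0 counts in all libraries. Lyz2 had 433 to 1261 counts in WT and 189 to 2173 in cKO libraries, against at least 102349 for Lyz1. The sums fell much as the single genes did, with log2 fold changes of −0.60 for Lyz1 with Lyz2 (adjusted p = 0.0130) and −1.27 for both pentraxins (adjusted p = 0.0272, edgeR), and Ang4 summed with its relatives stood at −0.33 (adjusted p = 0.271). The relatives add few counts, so these sums could hardly differ from the single genes and cannot show how well reads were divided. Whether some Mptx1 counts were reads of Mptx2 was not tested. The pentraxin sum, like Mptx2, lost its call in edgeR without WT replicate 1 (−1.20, adjusted p = 0.0524), WT replicate 3 (−1.14, 0.0621) or cKO replicate 3 (−1.30, 0.0512). Habp2 overlaps Nrap on the other strand over 788 bases, where reads cannot be told apart unless strand was used, and Nrap had 35.5 to 91.0 counts per library against 252 to 971 for Habp2. Mmp7 overlaps the antisense gene AV064505, which had at most 4.29 counts.

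Nupr1, Habp2 and Fgfrl1 have several transcripts, and their abundance-weighted effective lengths were 623 ± 29.0 and 662 ± 38.5 bases (Nupr1), 2040 ± 201 and 2158 ± 142 bases (Habp2) and 2062 ± 138 and 2132 ± 89.5 bases (Fgfrl1) in WT and cKO crypts (SD). None of these shifts passed a two-sided exact permutation test (p = 0.0873, 0.333 and 0.373).

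The α-defensins had 16 of 23 tested genes lower and none higher, with a median log2 fold change of −0.68, close to that of the 10 genes. Among all genes tested 12.7% were lower and 15.6% higher, the shares to set beside this list and those that follow. No Defa gene was higher at an unadjusted p below 0.05, by DESeq2 or by limma, and the study had shown many of them on these libraries, so their direction is not independent evidence. Of 15 regulators, receptors and niche ligands, 6 fell, 1 rose and 8 did not pass the test. Those that fell included Wnt3, a WNT ligand (−0.60), Spdef, a secretory lineage factor (−0.47), Dll4, a NOTCH ligand (−0.40), and Atoh1, the master factor of secretory fate (−0.31), and the receptor gene Fzd5, named as the only one to rise, stood at 0.28. Of 6 further secreted products, with a median of 0.24, Pnliprp2, a lipase, fell (−0.74, adjusted p = 0.0062, edgeR) and the other 5 did not pass the test. Among these the antimicrobial lectins Reg3a, Reg3b and Reg3g had positive values, of 1.78 (adjusted p = 0.0707), 1.47 (0.293) and 0.53 (0.597) in the same fit. Pla2g2a and Dmbt1 had negative values there, of −0.44 (adjusted p = 0.0812) and −0.047 (0.812). Dmbt1 was the most abundant of the 6, at a mean of 5644 CPM in WT and 5463 CPM in cKO animals.

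Markers of other cell types moved as well, and their counts stand beside 15.6% of all genes tested that rose and 12.7% that fell. All 9 enterocyte markers rose, among them Apoa4 (2.06), with a median of 1.83, and their sum was 4957, 7640.1, 2470.0, 1513 and 3736 CPM in WT and 12799.7, 12234, 8795, 15854 and 16977 CPM in cKO animals. The sum was thus highest in cKO replicates 4 and 5. These animals were also the lowest for Lyz1, Mmp7, Ang4, Mptx2, Itln1, Habp2, Clps and the summed Defa genes. For Mptx1, Nupr1 and Fgfrl1 they were not both the lowest. The part of the enterocyte sum in the result was not tested. None of the 7 goblet cell products tested passed the test by edgeR, and the median was 0.10. At an unadjusted p below 0.05 Clca1 was higher (0.45) and Agr2 and Spink4 lower (−0.23 and −0.32), DESeq2 called 1 of the 7 higher, limma voom none, and limma on log2(TPM + 1) called 2 lower. Of 7 enteroendocrine genes 3 rose (Tph1, Chgb and Chga, at 0.56, 0.43 and 0.42), and of 4 tuft cell genes tested Dclk1 and Trpm5 did (0.20 and 0.25). Of 5 stem cell genes 4 fell, with a median of −0.46 and summed levels of 4698 to 7717 CPM in WT and 3673 to 5552 CPM in cKO animals. The 6 macrophage genes, which bear on Lyz2, summed to 17.7 to 39.7 CPM in WT and 10.1 to 29.0 CPM in cKO animals, with C1qa and C1qb lower, and cKO replicate 4, the highest of the cKO animals, also had the most Lyz2. Of 5 lymphocyte genes, which summed to 59.6 to 112 CPM in WT and 33.2 to 74.6 CPM in cKO animals, Jchain, the joining chain of secreted antibodies, fell by 1.95 on the log2 scale without overlap (adjusted p = 0.00196, edgeR), and Cd79a of B cells stood at −2.10 (adjusted p = 0.120). The part of these lists in the results was not tested.

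**Figure D4:**
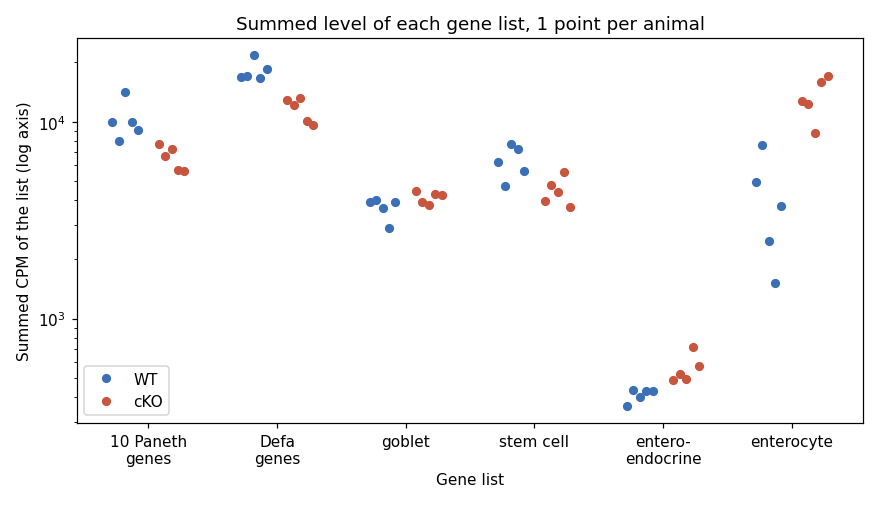
Summed CPM (log axis) of the 10 Paneth cell genes, the Defa genes and 4 marker lists, 1 point per animal in order of replicate. The 10 genes sum to 7944 to 14133 CPM in WT and 5624 to 7719.8 CPM in cKO animals, while the enterocyte list lies higher in every cKO animal than in any WT animal.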

How the data were processed

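RNA was taken from jejunal crypts and sequenced as polyA libraries, with 1 library per animal. Per the labels and the methods, the authors aligned with STAR and quantified with RSEM against Ensembl release 95 of GRCm38, then ran DESeq2 with terms for genotype and time. Time has 1 level here and was left out. Read length and strand setting are not given in the sources used here. The deposited values used were the expected count per gene, the authors' estimate that need not be whole, and the authors' TPM; the authors' effective length, an abundance-weighted length in bases, was read as deposited. Rows without a symbol (115 of 54838) held at most 0.0215% of a library and were kept in the totals.

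Expected counts were rounded, filtered with filterByExpr (minimum count 10, minimum total 15), scaled by TMM (factors 0.934 to 1.08) and tested with edgeR 4.0.16 (robust quasi-likelihood fit, genotype only) in R 4.3.3, with intervals at 95% from the fit's degrees of freedom. Calls used a Benjamini-Hochberg adjusted p below 0.05. A second fit took the summed Defa counts as library size, and another summed relatives. The fit was checked on simulated counts. Alternatives were DESeq2 1.42.0, limma 3.58.1 on voom and log2(TPM + 1) or log2(TPM + 0.1) values, other scalings and filters, unrounded counts, a length offset, a replicate block and leaving out animals.

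The text names all 10 genes, Arid3a, the gene most correlated with each of the 10 (genotype-centred log2 CPM with a pseudocount of 0.5), and overlapping genes and relatives. It also names some genes of the fixed lists, not all of them picked by level or size of change. The 10 genes and the lists were chosen with earlier results of these data known. Positions come from GENCODE annotation of GRCm38 and promoters from RefSeq (GRCm38.p6). With 5 animals against 5 a two-sided exact test cannot go below p = 0.00794.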

Additional observations from a re-analysis of the deposited data

How the results depend on the processing

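The number of the 10 genes lower in cKO crypts was 8 with all animals, 7 to 8 with 1 animal left out, and 4 without WT replicates 3 and 4. WT replicate 3 was chosen partly for its high levels of these genes, so smaller falls were partly built into that last fit. Mmp7, Itln1, Habp2 and Clps kept direction and call under all 24 alternatives, with log2 fold changes of −1.14 to −0.81, −0.81 to −0.51, −1.15 to −0.69 and −0.75 to −0.49, and Mptx2 also lost its call without a filter on low counts (−1.28, adjusted p = 0.0672, edgeR). Genes called in all numbered 4167, 3007 to 4684 with 1 animal left out and 2142 without WT replicates 3 and 4. Genes lower numbered 1869, with 4030 by library size only, 1188 with the replicate block, 1131 to 2112 with 1 animal left out (1131 without WT replicate 4) and 670 without WT replicates 3 and 4. Genes higher numbered 2298, with 1411 on log2(TPM + 1), 1399 on log2(TPM + 0.1), 1091 on TPM with no filter, 1760 to 2572 with 1 animal left out and 1472 without WT replicates 3 and 4; the cause was not tested. Relative to the defensins, 2 of the 10 genes were lower, 0 to 3 with 1 animal left out, 0 without the most abundant Defa gene and 0 without WT replicates 3 and 4, and the number higher was 0, 0 to 1 with 1 animal left out and 1, Ang4 (0.35), without the most abundant Defa gene. Values near 0 changed sign. Mptx1 was −0.049 by library size only, −0.079 with voom, −0.11 on log2(TPM + 1) with or without a filter, −0.17 on log2(TPM + 0.1), −0.065 with the replicate block, −0.067 without WT replicates 3 and 4 and −0.27 to 0.37 with 1 animal left out. On the defensin scale Itln1 was 0.044 without the most abundant Defa gene, 0.081 without WT replicates 3 and 4 and −0.062 to 0.031 with 1 animal left out, Clps and Fgfrl1 relative to Lyz1 were −0.052 and −0.014, and Fgfrl1 was −0.056 to 0.13 with 1 animal left out. Same-numbered WT and cKO animals are different mice, and their deviations correlated at −0.16, −0.036, 0.13, −0.14 and −0.15 over 14719 genes. These values were not compared with those of differently numbered animals, so they cannot decide whether the numbers pair the samples. With the replicate block 8 of the 10 genes were lower, as without it, and genes called fell to 3048. Counting error was 20.9% of the level in the lowest library for Mptx1 (23 counts), 7.58% for Nupr1, 6.30% for Habp2, 6.17% for Fgfrl1 and at most 2.79% for the other 6 genes.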
